A study of Mus musculus with 6 samples.

Results

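Genes of insulin-like growth factor (IGF) and insulin signalling, together with the imprinted long noncoding RNA H19, were followed in the most immature blood stem cells of mouse marrow, long-term haematopoietic stem cells (LT-HSCs), after the RNA-binding protein IMP1 had been switched on. The 9 genes were taken by name from a table of 21761 genes, in which Entrez identifiers were matched to mouse symbols. They were chosen with earlier results of these data known. They are H19 (Entrez gene 14955) and the ligand gene Igf2 (16002), both on chromosome 7, the ligand gene Igf1 (16000, chromosome 10), and the receptor genes Igf1r (16001, chromosome 7), Igf2r (16004, chromosome 17) and Insr (16337, chromosome 8). The substrate genes Irs1 (16367, chromosome 1) and Irs2 (384783, chromosome 8) and the binding-protein gene Igfbp4 (16010, chromosome 11) complete the set.

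The IMP1 group had the genotype Rosa26 I/+;Mx1-Cre tg/+, in which Cre switches on a copy of IMP1 placed in the Rosa26 locus. The Control group was Rosa26 +/+;Mx1-Cre tg/+, so both groups carried the Cre transgene and both were given poly(I:C), a mimic of viral RNA that induces Mx1-Cre. Marrow of both genotypes (CD45.2 allotype) had been transplanted into lethally irradiated CD45.1/2 hosts, and donor cells with the surface phenotype CD45.2+ LSK CD150+ CD48- CD34- were sorted when 8 weeks had passed since the last poly(I:C) dose. Each library was made from 200 cells, with 3 biological replicates of each genotype. Mx1-Cre answers to interferon and is not restricted to stem cells, so other donor blood cells of the IMP1 hosts could recombine too. The sources used here give neither the age of the animals nor the species of the IMP1 cDNA.

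IGF1, IGF2 and insulin bind the receptor tyrosine kinases encoded by Igf1r and Insr, which signal through the docking proteins IRS1 and IRS2 to PI3-kinase and AKT and through RAS to the MAP kinases. IGF2R, the cation-independent mannose 6-phosphate receptor, takes up and degrades IGF2, and IGFBP4 binds IGFs outside the cell and keeps them from the receptors. H19 and Igf2 lie side by side in an imprinted domain, with H19 read from the maternal and Igf2 from the paternal chromosome. In mice, the maternal H19 imprint has been described as holding back Igf2 and Igf1r signalling in LT-HSCs, and miR-675, a microRNA cut from an H19 exon, has been described as lowering Igf1r in placenta. IMP1, a member of the IGF2 mRNA-binding protein family, is known as a binder of Igf2 and H19 transcripts.

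Sequences of miR-675 are shown because they are what H19 could carry into this pathway. The RefSeq mature sequences lie at chr7:142577078-142577099 (3p) and chr7:142577112-142577133 (5p), minus strand, on GRCm38.p6. The capitals mark the seed, bases 2 to 8 from the 5′ end, and the seeds of both arms differ, so they form no shared seed group.
miR-675-3p: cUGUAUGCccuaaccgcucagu
miR-675-5p: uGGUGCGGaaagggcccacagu
The DNA letters that pair with the 3p seed, GCATACA, were searched on the transcribed strand of the 3′ UTR of 21028 genes of the GENCODE annotation, and 7.82% of them held it. The coding members were read on 1 transcript each. Of the matches in members, 2 fell in the Igf1r 3′ UTR of 7267 bases, at bases 505 and 1264, and 1 in the Insr 3′ UTR of 4747 bases, at base 3546. They are shown with their flanks, with the match in capitals.
Igf1r first match: cctcatcaccccGCATACAcctgc
Igf1r second match: cgtgaaacatttGCATACAcatcg
Insr match: caatgatgtcaaGCATACAtcagg
The other 6 coding members held none of these letters, and CCGCACC, which pairs with the 5p seed, was found in 1.76% of all 3′ UTRs and in none of the members. Long 3′ UTRs hold such letters more often, and among 3′ UTRs of similar length 37.5% of 389 genes held GCATACA for Igf1r and 23.7% of 1171 genes for Insr. A match of letters is a description and not a shown site, and Mir675 itself was not matched in the count table.

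Promoters of the IGF receptor genes are printed because both genes were higher in every IMP1 library than in any Control library, and that of Igf1 because its level moved apart from theirs. Each covers 250 bases before to 50 after the RefSeq start, on GRCm38.p6. GGGCGG, or CCGCCC on the other strand, is in capitals.
Igf1r, chr7:67952007-67952306, plus strand: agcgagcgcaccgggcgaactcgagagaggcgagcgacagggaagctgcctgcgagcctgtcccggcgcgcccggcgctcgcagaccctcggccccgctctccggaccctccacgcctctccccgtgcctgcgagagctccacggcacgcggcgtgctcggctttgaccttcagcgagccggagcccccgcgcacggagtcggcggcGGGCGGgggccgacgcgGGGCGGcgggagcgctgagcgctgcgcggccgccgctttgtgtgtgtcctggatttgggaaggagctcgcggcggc
Igf2r, chr17:12769657-12769956, minus strand: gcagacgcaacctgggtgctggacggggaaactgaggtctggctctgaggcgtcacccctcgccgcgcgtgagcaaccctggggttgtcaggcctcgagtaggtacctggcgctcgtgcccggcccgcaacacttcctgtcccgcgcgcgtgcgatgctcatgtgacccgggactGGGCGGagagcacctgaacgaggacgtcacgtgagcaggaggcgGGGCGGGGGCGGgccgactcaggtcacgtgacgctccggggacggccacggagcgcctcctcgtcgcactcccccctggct
Igf1, chr10:87860861-87861160, plus strand: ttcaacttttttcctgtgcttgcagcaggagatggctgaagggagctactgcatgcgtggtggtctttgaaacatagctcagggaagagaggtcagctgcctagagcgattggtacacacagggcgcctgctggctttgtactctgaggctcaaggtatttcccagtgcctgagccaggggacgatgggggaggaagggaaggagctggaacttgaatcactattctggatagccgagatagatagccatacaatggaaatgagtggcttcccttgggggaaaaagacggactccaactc
The Igf1r window held 48 CpG dinucleotides, more than in 98.8% of 32851 promoters of the same length, and 2 GGGCGG motifs. The Igf2r window held 34 CpG (92.3%) and 3 motifs, while the Igf1 window held 6 CpG (43.6%) and 0 motifs, against a median of 7 CpG over all promoters. GGGCGG was present in 35.7% of all promoters. Of the other members, Irs2 had 41 CpG, Irs1 28 and Igfbp4 27, so the count of CpG did not follow the level of the transcript, since Irs1 and Irs2 were close to 0 in most libraries.

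IMP1 libraries held 61916908, 67083116 and 50220629 counts, and Control libraries 27338450, 26326164 and 25749898. The IMP1 libraries were thus on average 2.26 times as deep, and no label names a batch, so depth and genotype cannot be told apart. The transgene followed the labels, with 1870, 2084 and 2016 counts of Igf2bp1, the gene for IMP1, in IMP1 cells and 0, 0 and 1 in Control cells (edgeR adjusted p = 0.00399). All 10 LT-HSC marker genes, among them Procr, Hlf and Mecom, were detected in all 6 libraries, with summed levels of 2380 to 2710 counts per 1000000 counts (CPM) in IMP1 and 1940 to 2200 CPM in Control cells. Red-cell markers summed to 109 to 489 CPM in IMP1 cells, highest in IMP1 1, and to 56.6 to 82.0 CPM in Control cells. CPM here are scaled by the trimmed mean of M values (TMM), and means are given ± SD over 3 libraries.

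H19 was seen in IMP1 cells alone, and not in all of them. It had 0, 201 and 75 counts in the IMP1 libraries, or 0, 2.90 and 1.44 CPM, and 0, 0 and 0 counts in the Control libraries. IMP1 2 and IMP1 3 were the libraries with H19, while IMP1 1 was at 0 like the Control libraries, so the groups overlapped. A count of 0 allows up to 0.0470 CPM in IMP1 1 (3 counts) and 0.113 to 0.120 CPM in the Control libraries, all below the levels in IMP1 2 and IMP1 3. IMP1 1 was deeper than IMP1 3, and with all libraries thinned to the smallest total IMP1 2 and IMP1 3 still had 79 and 37 H19 counts.

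Over the group, 276 H19 counts in IMP1 against 0 in Control cells gave a level at least 38.2-fold higher, with 3 counts over the Control group taken as the floor. The mean difference (IMP1 minus Control) was 1.45 CPM, and it was 0.722 CPM without IMP1 2 and 2.17 CPM without IMP1 1. Such floors and intervals hold the error of counting alone, as cDNA was amplified and carried no molecular identifiers. H19 missed the low-count filter of the main test because it was absent from 4 libraries. By CPM the exact two-sided permutation test over the 6 libraries gave p = 0.40, where 3 against 3 libraries cannot go below 0.10, and DESeq2, which kept the gene, gave an adjusted p of 0.102.

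Igf2, the paternal neighbour of H19 and the fetal ligand, was at the edge of detection. Its counts were 1, 0 and 0 in IMP1 and 0, 0 and 3 in Control libraries, which is at or below the floor in every library, and no fold is given. Mrpl23, a mitochondrial ribosomal protein gene on the other side of H19, was expressed in every library, with 125, 146 and 124 CPM in IMP1 and 127, 118 and 125 CPM in Control cells (log2 fold change 0.10, adjusted p = 0.799). Nctc1, a noncoding RNA gene beside H19, had 1 count in all 6 libraries together, and Ins2 and Mir483 had 0. Igf2os, the antisense transcript of Igf2, had its 5 counts in Control 3, the library that also held the 3 Igf2 counts. Reads where these genes overlap cannot be told apart without strand information.

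Other genes had the same pattern as H19. By Pearson correlation of log2 CPM over the 6 libraries, among genes with at least 50 counts in all, the 5 most alike were Mmp9, Kdf1, Myrf, Tenm4 and 4930513N10Rik (r of at least 0.9994). All 5 had 0 counts in IMP1 1 and in the 3 Control libraries. Mmp9, a secreted matrix protease, had 141 counts in IMP1 2 and 55 in IMP1 3, and Kdf1 had 461 and 156. Of 13768 genes with at least 50 counts, 44 were seen in IMP1 2 and IMP1 3 alone. The corresponding number was 49 for IMP1 1 with IMP1 2 and 38 for IMP1 1 with IMP1 3, while pairs of Control libraries, which are shallower, had 6 to 9. The pair of libraries that held H19 thus shared about as many such genes as the other pairs of IMP1 libraries.

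**Figure D1:**
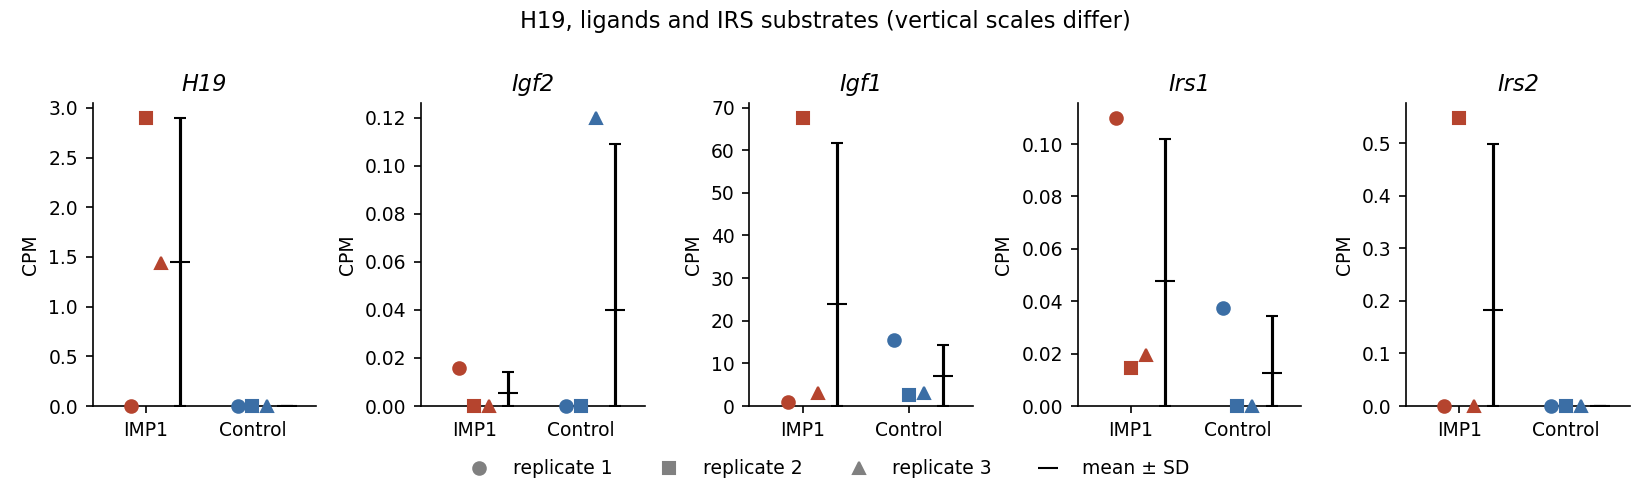
H19, the ligand genes and the IRS substrate genes in each library. The vertical axes are TMM-scaled CPM and differ between panels, IMP1 libraries are in red and Control libraries in blue, symbols mark the replicate and black bars the mean ± SD, drawn from 0 where the SD reaches below it. H19 stands at 2.90 and 1.44 CPM in IMP1 2 and IMP1 3 and at 0 elsewhere, and 67.6 CPM of Igf1 in IMP1 2 exceeds all other libraries.

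Igf1, the ligand made by many tissues after birth, varied more within groups than between them. It had 58, 4691 and 157 counts in the IMP1 libraries (0.910, 67.6 and 3.02 CPM) and 409, 64 and 74 counts in the Control libraries (15.4, 2.53 and 2.96 CPM). IMP1 2 held the highest level, 4.40 times that of the next library, Control 1, and the groups overlapped. The fitted log2 fold change was 1.78 (SE 1.43, edgeR adjusted p = 0.634) and turned to −1.82 without IMP1 2, while it was 3.12 without Control 1. Of 12807 tested genes, 5 were at least 10-fold higher in IMP1 2 than in any other library, a cut above the 4.40-fold of Igf1. The low-count filter had taken out genes such as Irs2, seen in IMP1 2 alone, before this count. Of 13768 genes with at least 50 counts, 41 were seen in IMP1 2 alone. How many genes reached the fold of Igf1 was not counted.

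Markers of other cells that the sort could hold were read beside Igf1. Monocyte and macrophage markers (9 genes, 5 to 7 detected per library) summed to 26.2 to 40.5 CPM in IMP1 and 22.3 to 36.1 CPM in Control cells, with the highest sum in IMP1 2. The genes of the list did not move together. Adgre1, the F4/80 antigen, had 165 counts in IMP1 2 and 0 in the other IMP1 libraries, whereas Csf1r, the receptor that defines the lineage, had 0 in all 3 IMP1 libraries. Marrow stroma markers (10 genes) summed to 35.4 to 40.9 CPM in IMP1 and 26.8 to 38.7 CPM in Control cells, again highest in IMP1 2, and also highest among Control libraries in Control 1. The collagen gene Col1a2 had 6, 140 and 0 counts in IMP1 and 145, 32 and 0 in Control libraries, most in IMP1 2 and Control 1, the libraries with the most Igf1. Col1a1 also had most of its counts there, 27 and 8. Other genes of the list went other ways. Cxcl12 had 130 counts in IMP1 3 and 0 elsewhere, and Pdgfrb was highest, at 9.69 CPM, in IMP1 1, the library with the least Igf1. Lepr, at 23.0 to 30.7 CPM, made up most of the sum in every library. Col3a1, Pdgfra, Dcn and Bglap were at 0 in every library.

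Some markers of B cells also set IMP1 2 apart, while most markers of neutrophils did not. B cell markers (8 genes) summed to 79.9, 147 and 105 CPM in IMP1 and 85.5, 71.6 and 75.1 CPM in Control cells. In IMP1 2 the B cell precursor genes Cd79a, Ebf1 and Igll1 had 1170, 986 and 2300 counts, against at most 9 in any other library, while Pax5 and Ms4a1 were at 0 in all libraries. Other genes of the list did not follow. Vpreb1 had 112, 163 and 0 counts in IMP1 and 0, 61 and 104 in Control libraries. Cd79b, most of the sum in every library, was highest in IMP1 3, at 105 CPM against 80.4 CPM in IMP1 2. Neutrophil markers (9 genes) summed to 911, 568 and 229 CPM in IMP1 and 282, 273 and 315 CPM in Control cells. Ngp and S100a8 stood at 172 and 242 CPM in IMP1 1, against 10.8 and 170 CPM in IMP1 2. Ltf, Camp and S100a9 were also highest in IMP1 1, Elane and Mpo in Control 1 and Prtn3 in Control 3. Only the neutrophil gene Retnlg was highest in IMP1 2, with 4059 counts there and 0 elsewhere. IMP1 2 also held most H19 counts and all counts of Irs2. The part of other cell types in the Igf1, H19 and Irs2 values was not tested. In bulk libraries, more cells of a type and more RNA per cell cannot be told apart.

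The genes most like Igf1 over the 6 libraries were Manba, a lysosomal mannosidase gene (r = 0.9899), the zinc transporter gene Slc39a9 (0.9867) and Gkn3 (0.9826), with 3216, 3271 and 3781 counts in IMP1 2. By rank correlation 0 of these 3 stayed among the closest.

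The receptor genes were the members that stood higher in IMP1 cells. Igf1r, the main receptor of IGF1 and IGF2, stood at 119, 100 and 119 CPM in IMP1 cells, against 93.2, 75.6 and 72.6 CPM in Control cells. Each IMP1 library lay above each Control library. The log2 fold change was 0.49 (SE 0.16, unadjusted p = 0.0180, edgeR adjusted p = 0.246), a 1.40-fold difference that did not pass the threshold of an adjusted p under 0.05.

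Insr, the insulin receptor gene, stood at 37.2, 43.9 and 48.0 CPM in IMP1 cells and at 28.0, 4.43 and 14.5 CPM in Control cells. The IMP1 libraries lay close together and above all Control libraries, which spread over a wide range, with 746 counts in Control 1 and 112 in Control 2. The log2 fold change was 1.46 (SE 0.57, adjusted p = 0.299), and it was 1.02 without Control 2 and 2.18 without Control 1.

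Igf2r stood at 36.1, 37.3 and 42.8 CPM in IMP1 cells and at 8.37, 24.2 and 18.8 CPM in Control cells. Again no Control library reached the lowest IMP1 library, and Control 1, the highest for Insr, was the lowest for Igf2r. The log2 fold change was 1.18 (SE 0.39, adjusted p = 0.238), and it ranged from 0.85 to 1.51 when single libraries were left out.

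Of the 9 members, 5 passed the low-count filter, namely Igf1, Igf1r, Igf2r, Insr and Igfbp4. The test called 0 of these 5 by edgeR's quasi-likelihood test with Benjamini-Hochberg adjustment over 12807 genes, of which 0.211% were called. Igf1r, Igf2r and Insr had an unadjusted p under 0.05, all higher in IMP1, as did 14.3% of all tested genes in either direction. For these 3 of 5 tested members all IMP1 libraries lay above all Control libraries, as for 10.7% of all tested genes, and 21.9% did not overlap in either direction. DESeq2 gave adjusted p-values of 0.0698 for Igf1r, 0.0518 for Igf2r and 0.0863 for Insr, and no other setting gave a lower one.

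**Figure D2:**
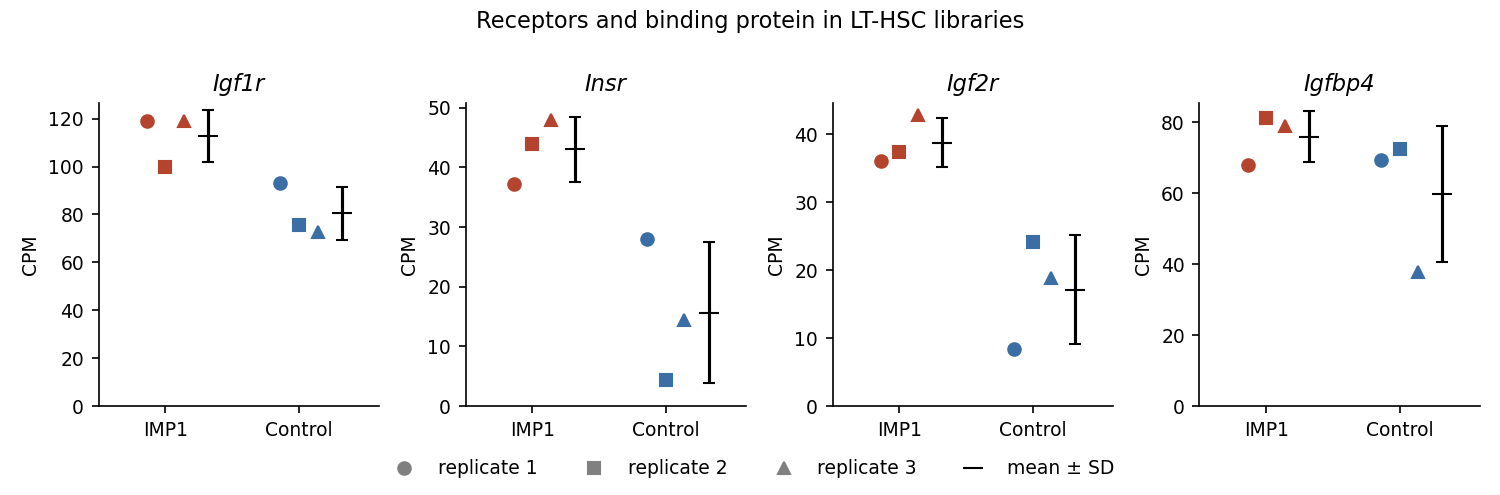
Receptor and binding-protein genes in each library. The vertical axes are TMM-scaled CPM starting at 0, IMP1 libraries are in red and Control libraries in blue, symbols mark the replicate and black bars the mean ± SD of 3 libraries. Igf1r, Insr and Igf2r do not overlap between the groups, while Igfbp4 does.

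The remaining receptor genes of the pathway list were Insrr and M6pr. Insrr, the insulin receptor-related receptor, which senses alkaline pH, stood at 21.3, 22.3 and 23.3 CPM in IMP1 and 10.8, 11.7 and 9.40 CPM in Control cells (log2 fold change 1.07, SE 0.31, adjusted p = 0.176). M6pr, the smaller mannose 6-phosphate receptor, which binds no IGF2, had the opposite direction, with 375, 374 and 342 CPM in IMP1 and 522, 416 and 435 CPM in Control cells (−0.33, SE 0.11, adjusted p = 0.249). Neither pair of groups overlapped. In all, 4 of 5 receptor genes were higher and 1 lower in IMP1 cells with no overlap, against 10.7% and 11.2% of all tested genes, and 0 of 5 were called.

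Fold changes in this table followed transcript length, and 4 of the 5 tested members are long. Tested genes were sorted by length into 4 equal bins, and their median log2 fold change was −0.13 for the shortest, −0.04 and 0.08 for the middle bins and 0.21 for the longest. Igf1, Igf1r, Igf2r and Insr, as well as Insrr, fell in the longest bin, with Igf1r at 11409 bases by its longest annotated transcript. After a smooth trend on length and GC content had been taken out of each library, the log2 fold change was 0.25 for Igf1r (adjusted p = 0.610), 0.98 for Igf2r (0.355), 1.23 for Insr (0.429) and 0.96 for Insrr (0.272).

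**Figure D3:**
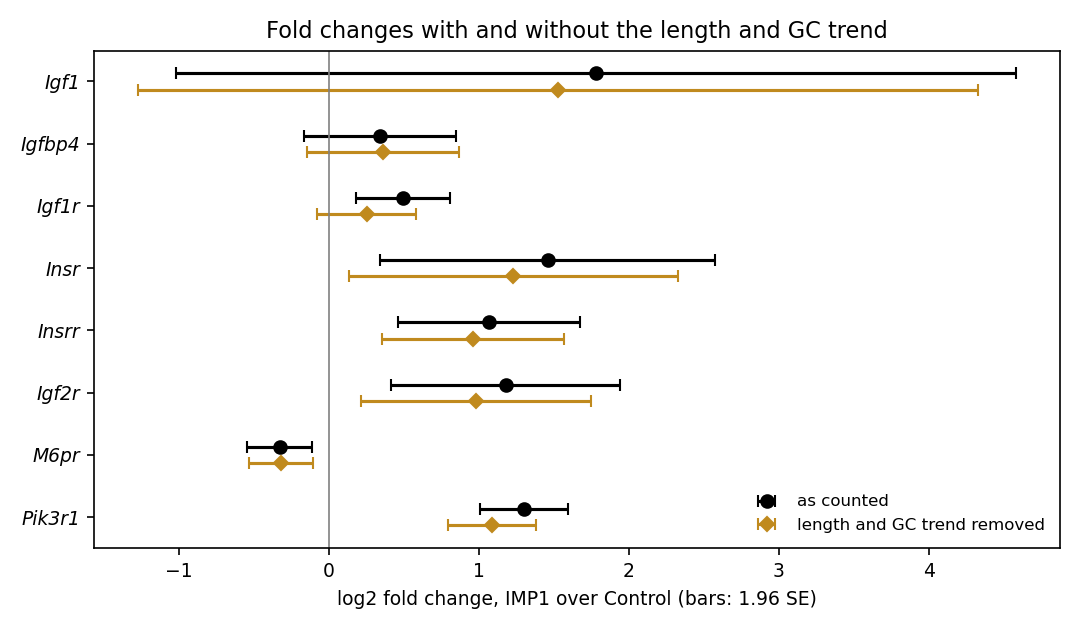
Log2 fold changes (IMP1 over Control) of the tested members, the other receptor genes and Pik3r1, as counted and after removal of the length and GC trend. Points are estimates, bars are 95% intervals from the SE and the vertical line marks 0. The value of Igf1r moves from 0.49 to 0.25 with the trend removed, while those of Insr, Igf2r and Insrr are 1.23, 0.98 and 0.96, and the bar of Igf1 spans 0.

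Igf2r is imprinted in mice, where it is silenced on the paternal chromosome by Airn, a long noncoding RNA that starts inside Igf2r and is read from the opposite strand. Airn, which was named after its values were seen, had 264, 233 and 296 counts in IMP1 libraries and 1, 2 and 1 in Control libraries, or 4.40 ± 1.19 CPM and 0.0522 ± 0.0233 CPM. All IMP1 libraries lay far above all Control libraries, and 109, 73 and 163 counts stayed in the IMP1 libraries after thinning to the smallest total. The fitted log2 fold change was 6.32 (SE 0.96, edgeR adjusted p = 0.0609), which missed the threshold. DESeq2 (adjusted p = 1.57e-06) and the strict low-count filter (0.0468) put it past, and the highest adjusted p over 18 alternatives was 0.201.

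The sources used here do not give the strand setting of the counting, so reads of Igf2r and Airn in their overlap cannot be told apart. Over the group, 793 Airn counts in IMP1 cells stood beside 7109 counts of Igf2r, and 4 Airn counts in Control cells beside 1306 counts of Igf2r. Slc22a3, a transporter gene of the same imprinted domain, overlapped between the groups at 64.2, 15.4 and 50.3 CPM in IMP1 and 61.8, 58.0 and 61.3 CPM in Control cells (log2 fold change −0.48, adjusted p = 0.689). Slc22a2, also of that domain, had 0 counts in all libraries.

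**Figure D4:**
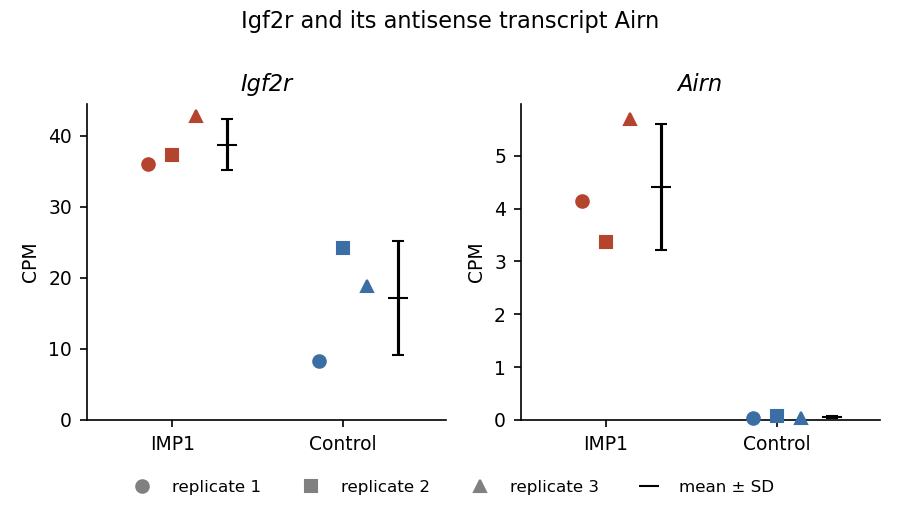
Igf2r and the antisense noncoding RNA Airn in each library. The vertical axes are TMM-scaled CPM and differ between panels, IMP1 libraries are in red and Control libraries in blue, symbols mark the replicate and black bars the mean ± SD of 3 libraries. Airn averages 4.40 CPM in IMP1 cells and 0.0522 CPM in Control cells.

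Ratios between receptors within a library do not depend on its depth scaling. Per kilobase of the longest transcript, the level of Igf1r was 2.63, 1.87 and 2.03 times that of Insr in IMP1 cells and 2.73, 14 and 4.11 times in Control cells, without overlap. It was 2.57, 2.10 and 2.16 times that of Igf2r in IMP1 cells and 8.67, 2.43 and 3.00 times in Control cells, with overlap. The size of such a ratio depends on the transcript lengths used, but its comparison between the groups does not. The log2 ratio of Igf1r to Insr averaged 1.11 in IMP1 and 2.43 in Control cells (exact two-sided permutation p = 0.10, the smallest that 3 against 3 allows, and 0.20 adjusted over the 4 ratios computed).

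The genes with the pattern most like each receptor were a mixed set. Igf1r was closest to Ccne1, which encodes cyclin E1 (r = 0.9989), Rbm6 and the nucleoside transporter gene Slc29a1. Insr was closest to Arhgef12, Eno2 and Ptprs, and Igf2r to Sipa1l3, Skint3 and Ctss, the last a lysosomal protease gene. By rank correlation all 3 genes stayed among the closest for Igf1r and Insr, and 1 of 3 for Igf2r. All 9 Pearson correlations were at least 0.9905 over 6 libraries, which share a common depth difference between groups, and they are given as a description. Among the receptors, r was 0.826 for Igf1r with Insr, 0.503 for Igf1r with Igf2r and 0.288 for Igf2r with Insr.

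The docking-protein genes Irs1 and Irs2, which carry the signal of both tyrosine kinase receptors to PI3-kinase, were all but silent. Irs1 had 7, 1 and 1 counts in IMP1 and 1, 0 and 0 in Control libraries, 9 against 1 over the groups, a ratio of 3.74 per count sequenced with an exact 95% counting interval of 0.518 to 164. IMP1 1 held 7 of the 9 counts, and without it the mean difference (IMP1 minus Control) shrank to 0.00432 CPM, against 0.0353 CPM with all libraries. The interval of the ratio spans 1, so no difference was detectable at this depth. Irs2 had 0, 38 and 0 counts in IMP1 and 0 in every Control library. All Irs2 counts came from IMP1 2, and over the group the level was at least 5.26-fold higher than the Control floor, by that 1 library. Of the other family members on the list, Irs3 had 10 counts, all in IMP1 2 as for Irs2, and Irs4 had 3 counts in all 6 libraries together.

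Other adaptors were well expressed. Dok2, a docking protein that restrains RAS signalling in blood cells, stood at 49.2, 50 and 29.7 CPM in IMP1 and 59.7, 67.9 and 71.3 CPM in Control cells (log2 fold change −0.63, adjusted p = 0.302), without overlap. Grb2, the adaptor that links receptors to RAS, stood at 63.9 ± 9.93 CPM in IMP1 and 67.5 ± 7.06 CPM in Control cells (−0.08, adjusted p = 0.899). Of 14 tested substrate and adaptor genes of 18 listed, 0 were called, 9 were positive and the median was 0.21.

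Igfbp4 was the only one of the 9 listed binding-protein genes to pass the filter, and the member with the highest level per kilobase. It stood at 67.8, 81.1 and 78.8 CPM in IMP1 cells and at 69.3, 72.4 and 37.8 CPM in Control cells. The groups overlapped, with Control 3 below all others. The log2 fold change was 0.34 (SE 0.26, adjusted p = 0.615) and shrank to 0.10 without Control 3. The closest patterns were those of Ankrd23, Pard6b and Pbx2 (r of at least 0.9935), which were also lowest in Control 3 by counts. Of the 8 other binding-protein genes, Igfbp6 had 52 counts over all libraries, 51 of them in Control 2, and the rest had at most 2 each.

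Per kilobase, Igfbp4 and then Igf1r were the highest members in both groups. Insr and Igf2r changed places between the groups, and the lowest members came in a different order. In IMP1 cells Igfbp4 stood at 19.8 ± 1.86 CPM per kilobase and Igf1r at 9.88 ± 0.95, and these did not overlap with each other or with the next gene. Igf1r did overlap with Igf1, which stood at 9.59 in IMP1 2, where Igf1r stood at 8.78. Insr (4.60 ± 0.585), Igf2r (4.36 ± 0.403) and Igf1 (3.38 ± 5.38) followed, each overlapping its neighbour, then H19 (0.633 ± 0.634), Irs2, Irs1 and Igf2, all at most 1.27 in any library. In Control cells the order was Igfbp4 (15.6 ± 5.0), Igf1r (7.05 ± 0.979), Igf2r (1.93 ± 0.906), Insr (1.67 ± 1.26) and Igf1 (0.986 ± 1.03). Igf2r, Insr and Igf1 overlapped there, and Igf2, Irs1, H19 and Irs2 were at or near 0. These levels and their order depend on the length used. Over all libraries, the shortest annotated transcript gave 132 CPM per kilobase for Igf1r, 114 for Igf2r and 53.2 for Insr, where the longest gave 8.47, 3.14 and 3.14. By the longest transcript, Igfbp4 was above 83.6% of genes with a known length in IMP1 cells and above 80.5% in Control cells, and Igf1r above 74.0% and 70.1%.

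Other genes of the pathway were taken from a list of 123 genes, 121 of them in the table and 88 tested. Of these 88, 1 was called higher and 0 lower in IMP1 cells, against 0.0703% and 0.141% of all tested genes. At an unadjusted p under 0.05, 12 were higher and 6 lower, against 6.67% and 7.63% of all tested genes. Positive log2 fold changes were found for 54 of 88 with a median of 0.18, while the median over all 12807 tested genes was 0.03. Without the members, 49 of 83 were positive and the median was 0.16. These values keep the length trend, and the median of the longest bin of tested genes was 0.21. Fold changes without the trend were fitted for single genes, and the medians of the list and of its roles were not recomputed from them. The part of the trend in these medians was thus not tested.

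Pik3r1, which encodes the p85α regulatory subunit that couples PI3-kinase to IRS proteins, was the gene that rose. It stood at 164, 211 and 176 CPM in IMP1 cells and at 78.6, 75.6 and 68.9 CPM in Control cells. Every IMP1 library lay above every Control library. The log2 fold change was 1.30 (SE 0.15, edgeR adjusted p = 0.0287). The call held in 9 of 18 alternatives. It was lost once the length and GC trend had been taken out (1.09, adjusted p = 0.0602), by limma-voom (0.0638) and when any 1 library was left out, with log2 fold changes of 1.19 to 1.38 in those 6 fits and the highest adjusted p, 0.162, without Control 3.

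Among the other 10 tested PI3-kinase and phosphoinositide phosphatase genes 0 were called. Inpp5k, a lipid phosphatase gene and the most abundant of the group per kilobase, stood at 110 ± 36.1 CPM in IMP1 and 138 ± 28.5 CPM in Control cells (−0.33, adjusted p = 0.634).

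Genes listed as receptor attenuators were mostly above 0. That role comes from the list and was not tested here. Of 15 tested, 11 were positive with a median of 0.48, where 52.2% of all tested genes were positive. In 6 of the 15 every IMP1 library lay above every Control library, as for 10.7% of all tested genes, and 0 were called. Nedd4, a ubiquitin ligase gene whose product acts on IGF1R and its partner GRB10, stood at 678, 565 and 644 CPM in IMP1 and 487, 423 and 336 CPM in Control cells (0.60, SE 0.15, adjusted p = 0.119). Socs2, an inhibitor of growth hormone and IGF signalling, stood at 108, 136 and 141 CPM in IMP1 and 59.5, 60.8 and 91.7 CPM in Control cells (0.86, SE 0.21, adjusted p = 0.126). Both sets of IMP1 libraries lay above all Control libraries. Ptpn2, a tyrosine phosphatase gene, stood at 161 ± 28.0 CPM in IMP1 and 127 ± 14.3 CPM in Control cells (0.34, adjusted p = 0.404).

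As counted, with the length trend kept, the downstream arms centred on 0. Of 24 tested AKT and TOR genes, 11 were positive, with a median of −0.08 and 0 called. Eif4ebp1, the translation repressor that TOR phosphorylates, stood at 106 ± 10.5 CPM in IMP1 and 112 ± 15.6 CPM in Control cells, and the kinase gene Gsk3b at 417 ± 24.6 CPM in IMP1 and 413 ± 47.2 CPM in Control cells (adjusted p = 0.868 and 0.967). Of 10 RAS and MAP kinase genes, 5 were positive, with a median of −0.02 and 0 called. Map2k1, which encodes MEK1, stood at 69.3, 55.2 and 63.2 CPM in IMP1 and 35.9, 40.1 and 29.8 CPM in Control cells (0.83, SE 0.21, adjusted p = 0.134). Its span overlaps that of Uchl4, and reads in any shared exon could not be told apart without strand information. The spans of Dok2 and Gsk3b likewise overlap those of Xpo7 and BC031361. Whether exons are shared was not examined. Nras, the most abundant of the arm, stood at 561 ± 21.9 CPM in IMP1 and 648 ± 34.2 CPM in Control cells (−0.21, adjusted p = 0.320), and Araf at 115 ± 13.4 CPM in IMP1 and 98.3 ± 8.46 CPM in Control cells (0.22, adjusted p = 0.561).

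Ctsd, the lysosomal protease cathepsin D, which reaches lysosomes by the mannose 6-phosphate receptors and can cleave IGF-binding proteins, was the only tested gene of the binding-protein proteases and inhibitors. It stood at 194, 200.0 and 193 CPM in IMP1 cells and at 322, 319 and 405 CPM in Control cells. No IMP1 library came near the lowest Control library. The log2 fold change was −0.83 (SE 0.12, edgeR adjusted p = 0.0571), which missed the threshold, and it was past it in 5 of 18 alternatives, with DESeq2 giving 7.57e-08 and the fit without Control 2 giving 0.189.

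**Figure D5:**
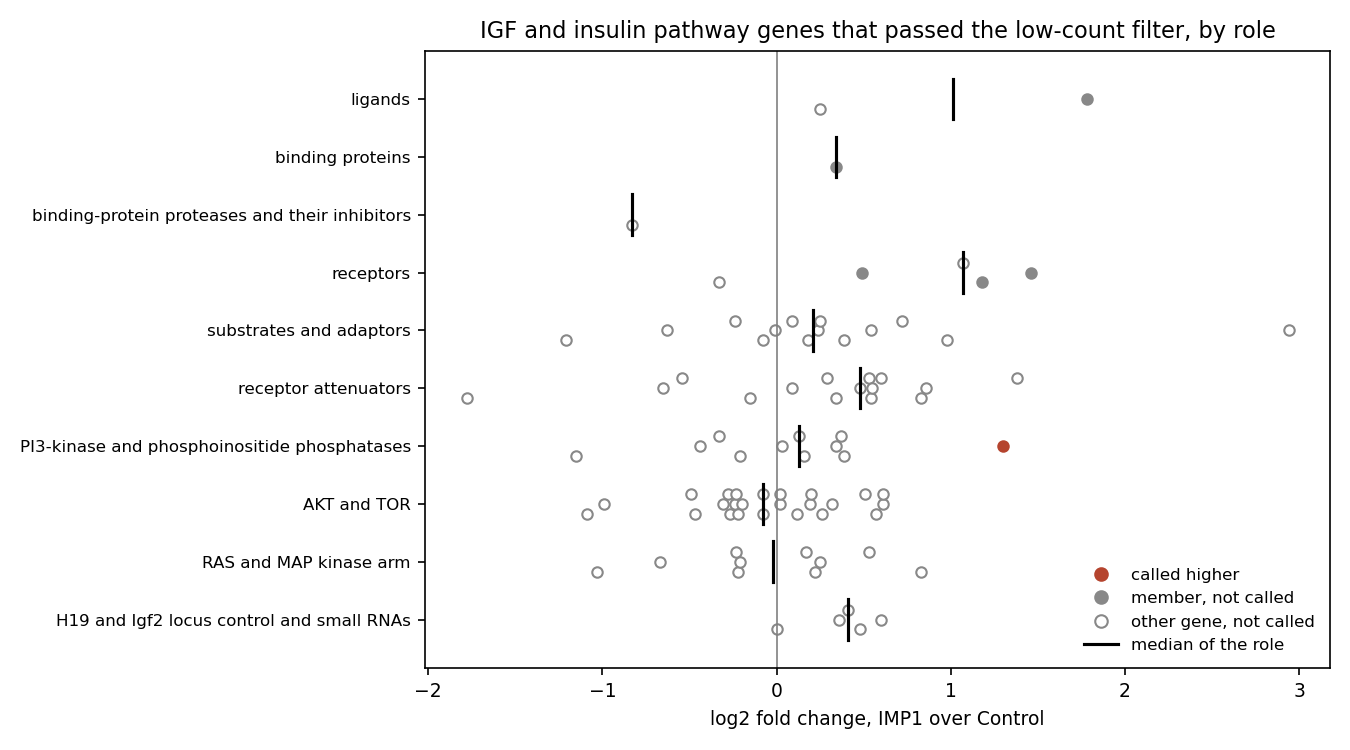
Log2 fold changes (IMP1 over Control) of the 88 tested pathway genes, by role. Each point is a gene, filled grey for members, open for other genes and red for the gene called higher, and black bars are the medians of each role. The receptors centre on 1.07, the AKT and TOR genes on −0.08, and the red point is Pik3r1 at 1.30.

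Factors that act on the H19 and Igf2 domain were not called either. Of 5 tested, 4 were positive with a median of 0.41. In 3 of the 5, Ctcf, Ctcfl and Hmga2, every IMP1 library lay above every Control library, as for 10.7% of all tested genes. Trim28 and Zfp57, which together keep imprints methylated, stood at 158 ± 10.2 and 79.5 ± 19.1 CPM in IMP1 cells and at 158 ± 20.4 and 60 ± 26.9 CPM in Control cells (log2 fold changes 0.00 and 0.41, adjusted p = 0.999 and 0.662). Of the ligand genes, Insl6, a relaxin-family gene, was the only tested one besides Igf1, at 59.3 ± 13 CPM in IMP1 and 49.9 ± 20.1 CPM in Control cells (0.25, adjusted p = 0.788), and the insulin genes Ins1 and Ins2 had 0 counts in every library.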

How the data were processed

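RNA of 6 libraries of sorted LT-HSCs was measured by sequencing, 3 IMP1 and 3 Control. The values are raw counts of reads for each Entrez gene, deposited by the authors as 1 table with a column for each library, per the file headers. The submitters' processing notes name TopHat2 2.0.10 and mm9. Which program counted the reads, with which annotation and strand setting, is not given in the sources used here. Columns were matched to libraries by the names in the header. RefSeq (GRCm38.p6) supplied symbols for 21615 of 21761 identifiers, gene order, overlaps and sequences, and GENCODE transcript lengths and 3′ UTRs. Printed coordinates are those of RefSeq sequences on GRCm38.p6 and not of the mm9 counts.

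Counts were tested as deposited by edgeR 4.0.16 (quasi-likelihood F test) in R 4.3.3 (default settings, TMM scaling, filterByExpr, genotype as the only term, all 6 libraries in 1 fit), leaving 12807 genes, and a gene was called where its Benjamini-Hochberg adjusted p was under 0.05. The SE is the absolute log2 fold change over the square root of F. Levels per kilobase use the longest annotated transcript, and correlations use log2 CPM with a prior count of 2. Members and gene lists were chosen with earlier results of these data known, so no test over a list was made. The text names all members, pathway genes that were called or had an unadjusted p under 0.01, the 2 most abundant per kilobase in each role, and for each member the genes most correlated with it (5 for H19, 3 for each tested member). A gene that met this rule is not reported here. Genes and groups of genes named outside this rule, such as Airn and the neighbours of H19, were chosen after their values were seen. Alternatives were DESeq2 1.42.0, voom of limma 3.58.1, other scalings and filters (the strict one asked for at least 1 CPM in at least 3 libraries), the replicate number as a block, thinning to 25749898 counts, removal of a loess trend (span 0.4) on length and GC, other edgeR settings and each library left out.

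The fit was tested on simulated counts of 12545 genes, of which 200 were changed. Of the genes changed by 1 log2 unit it recovered 21.2%, and of those with 3 log2 units 72.0%, while 3 of 96 calls fell on unchanged genes. No libraries were duplicates, with a chi-square per degree of freedom of at least 61.3 within groups. Since nothing states how the biological replicates were kept apart as animals, p-values measure the spread between these libraries.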

Additional observations from a re-analysis of the deposited data

How the results depend on the processing

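Of 95 values of tested members under the alternatives, 94 kept direction and side of the threshold, and no alternative called a member. The exception was the log2 fold change of Igf1, which ran from −1.82 (without IMP1 2) to 3.12 (without Control 1) with single libraries left out. The CPM difference (IMP1 minus Control) of Igf2 ran from −0.0548 to 0.00523, the positive value without Control 3, and that of Irs2 from 0 (without IMP1 2) to 0.274. Over all genes, 9 were called higher and 18 lower. DESeq2 called 405 higher and 517 lower, limma-voom 1 and 10, the strict filter 19 and 39, and an adjusted p under 0.10 gave 93 and 138. Lower calls numbered 7 without TMM, 11 with a total count of at least 10, 6 with the length and GC trend removed and 36 with edgeR's legacy = FALSE. With single libraries left out there were 0 to 2 higher and 0 to 1 lower. For pathway genes (1 higher, 0 lower), DESeq2 called 5 higher and 2 lower, limma-voom and trend removal 0 higher, and leaving out any library 0 to 0 higher. One lower pathway gene, Ctsd, was called without the filter, with the strict filter, after thinning, with legacy = FALSE and at an adjusted p under 0.10 (1 in each).

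With the replicate block, 1 gene was called higher and 3 lower, with 0 pathway genes higher (Pik3r1 adjusted p = 0.109), and Igf1 moved to 0.12. The deviations of same-numbered libraries from their group means were close to uncorrelated (r of 0.037, 0.037 and 0.018), and other pairs had r of −0.058 to 0.026. With 3 libraries in each group, this cannot decide whether the numbers pair the samples. Levels per kilobase move with the transcript length used. With the median transcript length Igf1r averaged 48.4 CPM per kilobase over all libraries, Igf2r 34.8 and Insr 17.5. With single libraries left out, the CPM difference (IMP1 minus Control) ran from 0.722 to 2.17 for H19 and from 0.00432 to 0.0520 for Irs1. Depth limits Igf2 and Irs1, whose counts are at or near the floor.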

Other observations

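Other genes near H19 and Igf2 had mixed patterns. Tnnt3 had 1, 42 and 19 counts in IMP1 libraries, most in IMP1 2 and IMP1 3 as for H19, but also 0, 0 and 32 in Control libraries. Prr33 had 26 counts in IMP1 3 and 0 elsewhere. Ascl2, an imprinted transcription factor gene of the neighbouring domain, had 33, 39 and 0 counts in IMP1 libraries and 0 in each Control library, so IMP1 1 had Ascl2 without H19 and IMP1 3 had H19 without Ascl2. Th, which encodes tyrosine hydroxylase, had 0, 8 and 0 counts in IMP1 libraries and 0 in each Control library. Lsp1, a leukocyte actin-binding protein gene on the far side of Mrpl23, stood at 257, 284 and 354 CPM in IMP1 cells and at 196, 262 and 202 CPM in Control cells (log2 fold change 0.44, edgeR adjusted p = 0.283).

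Other pathway genes, like Irs2, had nearly all their counts in 1 library. Adamts1, a matrix protease gene, had 1, 0 and 5 counts in IMP1 and 0, 158 and 0 in Control libraries. Htra1, a protease gene whose product cleaves IGF-binding proteins, had 0, 57 and 0 counts in IMP1 libraries and 0 in each Control library. Of 13768 genes with at least 50 counts, 46, 41 and 34 were seen in IMP1 1, IMP1 2 and IMP1 3 alone, and 15, 7 and 9 in Control 1, Control 2 and Control 3 alone. The Control libraries were less deep, and the part of depth in this difference was not tested.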
